A study of Canis lupus familiaris with 18 samples.

Results

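Genes whose expression differed between aorta and veins in the same direction in both vascular cell types were taken from the read count table. The genes were chosen by their measured aorta-vein ratio. Counts were scaled to CPM, the count divided by the column total and multiplied by 1000000. The ratio R was the mean CPM of the 3 aortic samples plus 1, divided by the mean CPM of the 6 venous samples plus 1, and was computed in canine primary endothelial cells (CaPECs) and in vascular smooth muscle cells (VSMCs) apart. A gene was called aorta-high when R was at least 1.5 in both cell types with a mean aortic level of at least 5 CPM in both. It was called vein-high when R was at most 1 divided by 1.5 in both cell types with a mean venous level of at least 5 CPM in both. Of the 24580 genes in the table, 46 were aorta-high and 153 were vein-high, 199 in all. Because this difference chose the genes, its values are given here as a description and were not used as evidence.

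The cells came from the abdominal aorta, vena cava, and vena porta of 3 healthy male dogs, taken after death as surplus tissue of unrelated pacemaker research, with 3 cultures for each cell type and vessel and 18 libraries in all. All were bulk primary cultures at passage 3 with no treatment compared, obtained without cell sorting, the CaPECs by a short enzymatic digestion of the inverted vessel and the VSMCs by a longer digestion of the minced remainder. CaPECs were grown on gelatin in an endothelial growth medium and VSMCs in DMEM with fetal calf serum, so cell type and culture medium cannot be told apart. Cultures of one cell type are numbered 1 to 3 with the same tag in each vessel, taken here as the dog, and whether a CaPEC and a VSMC culture of one number share a dog is not given in the sources used here. The genes are listed by Ensembl identifier, and 0 of them matched the gene table at hand. They are therefore described by identifier, without symbols or functions, and the labelled cell types were not checked against marker genes. A library held 6020932 to 15746769 counts.

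Arteries carry blood at high pressure and have a thick muscular and elastic wall, whereas veins are thin-walled and work at low pressure. In endothelium, arterial identity is known to depend on Notch signalling and venous identity on the nuclear receptor COUP-TFII, and part of this identity is kept when cells are grown outside the vessel. Smooth muscle cells of different vessels arise from different embryonic sources and can keep gene expression related to position in culture.

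In the 46 aorta-high genes, R was 1.52 to 39.4 in CaPECs (median 2.13) and 1.52 to 7.15 in VSMCs (median 1.76). In the 153 vein-high genes, the inverse of R, veins over aorta, was up to 14.5 in CaPECs (median 2.14) and up to 19.9 in VSMCs (median 1.82). All aorta-vein ratios, the edgeR and DESeq2 tests aside, are given on this scale, with 1 CPM added to both means, and understate the fold of the levels themselves where a level is low. The difference was the larger one in CaPECs for 32 of the 46 aorta-high and 107 of the 153 vein-high genes. On this scale, both cell types reached a ratio of 2 in 12 aorta-high and 43 vein-high genes, and both reached 4 in 1 and 4 genes. Many members thus lay close to the threshold in at least one cell type. Of the aorta-high genes, 10 had a ratio under 1.6 in at least one cell type, against 46 of the vein-high genes. The aorta-high gene nearest the limit had ratios of 1.52 in CaPECs and 1.59 in VSMCs, and the nearest gene outside it had 4.16 and 1.498. Among vein-high genes, the nearest inside had 1.501 and 1.78, and the nearest outside 1.76 and 1.499. In bulk cultures, fewer cells expressing a gene and less RNA per cell cannot be told apart.

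**Figure D1:**
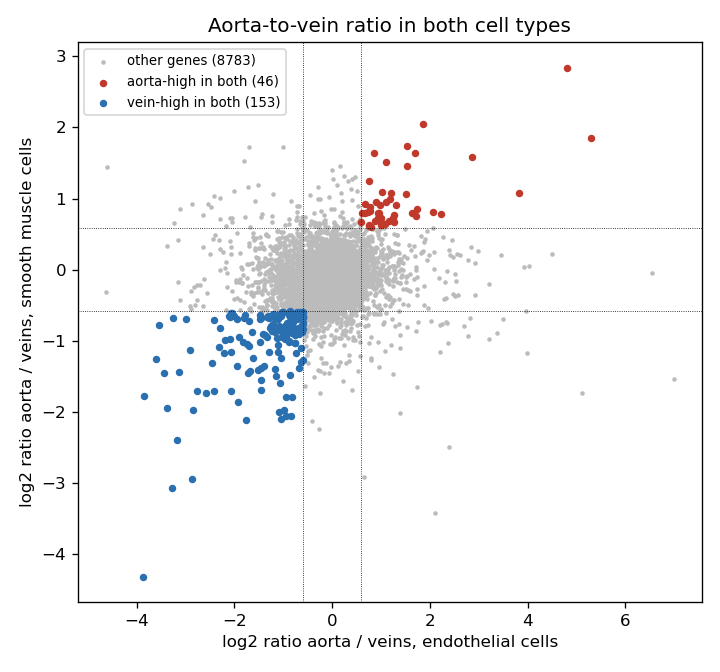
Log2 of the aorta-to-vein ratio R in endothelial cells (x axis) and smooth muscle cells (y axis) for the 8982 genes with at least 5 CPM in the aorta or in the veins of both cell types, each point a gene, with dotted lines at a 1.5-fold difference. The 46 aorta-high genes fill the upper right corner and the 153 vein-high genes the lower left one, many of them near the lines.

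The overlap of the 2 cell types was set beside the number that the product of their shares would give. Among the 8449 genes with an aortic level of at least 5 CPM in both cell types, 494 were aorta-high in CaPECs (5.85%) and 146 in VSMCs (1.73%). The product of these shares gives 8.54 genes, and 46 were found, which is 5.39 times as many. The 46 genes were 9.31% of the CaPEC genes and 31.5% of the VSMC genes. Among the 8879 genes with a venous level of at least 5 CPM in both, 1045 were vein-high in CaPECs and 453 in VSMCs, for which the product gives 53.3 genes. The 153 genes found were 2.87 times as many, 14.6% of the CaPEC genes and 33.8% of the VSMC genes.

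Genes that differed in opposite directions were also more numerous than the product of the shares. There were 54 genes that were aorta-high in CaPECs and vein-high in VSMCs where the product gives 23.7, and 46 that were vein-high in CaPECs and aorta-high in VSMCs where it gives 17.98. These are 2.28 and 2.56 times the product, close to the 2.87 of the vein-high genes and below the 5.39 of the aorta-high genes. The members varied more between cultures of one vessel than other genes. Their median biological coefficient of variation in CaPECs was 0.479 for aorta-high and 0.590 for vein-high genes, against 0.292 over all genes tested. In VSMCs it was 0.347 and 0.298, against 0.217. The part of this variation in the overlap was not tested.

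The balance of the 2 directions depended on the scaling. With column totals, the median log2 R over the 8879 genes was -0.12 in CaPECs and -0.15 in VSMCs, so that the venous side was favored in both. With TMM scaling (edgeR's trimmed mean of M values), these medians were -0.03 and 0.0039, and the rule gave 89 aorta-high and 91 vein-high genes in place of 46 and 153. The 46 aorta-high genes were all among the 89, while 89 of the 153 vein-high genes were among the 91. With TMM, the same-direction overlaps were 4.38 times the product for aorta-high and 4.55 times for vein-high genes, and the opposite-direction overlaps 2.93 and 2.64 times. The larger number of vein-high genes was thus seen with column totals and not with TMM. With the median of samples in place of the mean, there were 72 aorta-high and 198 vein-high genes. The TMM factors of the aortic VSMC libraries were 0.794, 0.939, and 0.787, against 0.861 to 1.03 in the venous ones.

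**Figure D2:**
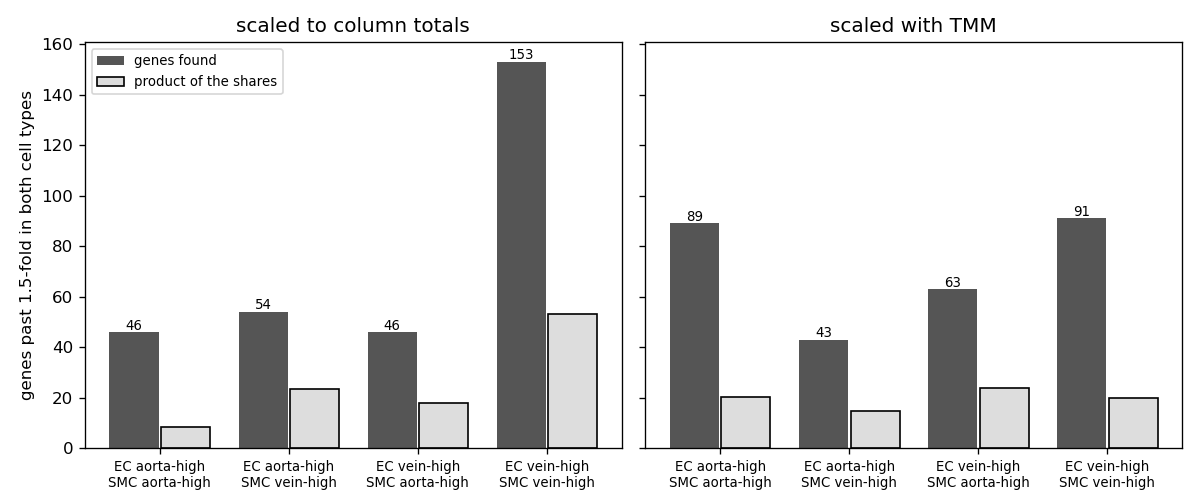
Number of genes past a 1.5-fold difference between aorta and veins in both endothelial cells (EC) and smooth muscle cells (SMC), for each pair of directions (dark bars), and the number that the product of the shares gives (light bars), with counts scaled to column totals (left) or with TMM (right). The vein-high pair fell from 153 to 91 and the aorta-high pair rose from 46 to 89.

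ENSCAFG00000029131 had the largest aorta-high difference by the smaller of its 2 ratios. In CaPECs, it was at 79.5, 39.7, and 84.3 CPM in aorta 1 to 3, at 0.921, 4.09, and 0 in vena cava 1 to 3, then 2.16, 1.62, and 0 in vena porta 1 to 3. In VSMCs, it was at 10.5, 13.96, and 1.44 CPM in the aorta, at 0, 0.827, and 0.124 in the vena cava, then 0, 0.815, and 0.323 in the vena porta. All aortic samples lay above all venous samples in both cell types, although aorta 3 of the VSMCs, with 15 counts, lay near the venous samples, which had 0 to 8 counts. R was 27.9 in CaPECs and 7.15 in VSMCs (log2 R 4.80 and 2.84, or 5.44 and 4.29 with 0.1 CPM added in place of 1). Averaged over vessels, the gene was 2.13 higher on the log2 scale in CaPECs than in VSMCs (standard error, SE, 0.73). The adjusted p was 0.026 by edgeR's quasi-likelihood test, which took the vessels of a dog as separate samples. Between the 2 veins, the gene did not differ at the threshold in either cell type. The log2 fold changes of vena cava against vena porta were 0.31 (SE 1.15) in CaPECs and -0.51 (SE 1.33) in VSMCs.

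ENSCAFG00000002961, the second aorta-high gene, was at 20.9, 12.3, and 6.54 CPM in aortic CaPECs 1 to 3. It was at 6.44, 4.19, and 6.39 CPM in CaPECs of the vena cava and at 0.149, 0, and 0.250 in those of the vena porta. The aortic samples lay above the venous ones, but aorta 3 was close to vena cava 1 and 3, and the vena porta was near 0. The log2 fold change between vena cava and vena porta was 5.10 in CaPECs (SE 0.73, edgeR adjusted p = 0.113), which is not past the threshold over 11696 genes. In VSMCs, it was at 7.07, 7.68, and 0.385 CPM in the aorta, at 0.572, 0.310, and 0.124 in the vena cava, and at 0, 0.204, and 1.53 in the vena porta. Here the groups overlapped, since aorta 3 lay below 2 of the venous samples, and in dog 3 the ratio was below 1 (log2 R -0.40). R was 3.65 in CaPECs and 4.15 in VSMCs (log2 R 1.87 and 2.05, or 2.15 and 3.21 with 0.1 CPM added).

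ENSCAFG00000029087 led the vein-high genes, with an inverse of R of 14.5 in CaPECs and 19.9 in VSMCs (log2 R -3.86 and -4.32, or -4.94 and -5.18 with 0.1 CPM added in place of 1). In CaPECs, it was at 0, 1.16, and 0.793 CPM in aorta 1 to 3, at 4.47, 3.67, and 29.9 in the vena cava, then 50.5, 34.8, and 14.5 in the vena porta. VSMCs had 0.493, 0.499, and 1.83 CPM in the aorta, 78.4, 59.6, and 46.3 in the vena cava, and 15.5, 13.0, and 12.9 in the vena porta. No aortic sample reached a venous one in either cell type. The higher vein was the vena porta in CaPECs by the group means, with dog 3 the other way round, and the vena cava in all 3 pairs of VSMCs. In VSMCs, the log2 fold change of vena cava against vena porta was 2.06 (SE 0.34). Its adjusted p-value from edgeR was 0.185 without the dog in the model and 0.014 with the dog as a replicate block. In CaPECs, the log2 fold change was -1.48 (SE 0.89, edgeR adjusted p = 0.540), and the difference between the cell types was not tested.

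ENSCAFG00000002364, the second vein-high gene, was at 3.90, 4.32, and 3.07 CPM in aortic CaPECs 1 to 3. It was at 27.2, 2.83, and 51.1 CPM in CaPECs of the vena cava and at 82.5, 95.6, and 10.5 in those of the vena porta. Vena cava 2 lay below all aortic samples, so the groups overlapped in CaPECs. In VSMCs, it was at 0.905, 0.798, and 3.94 CPM in the aorta, at 48.6, 10.03, and 17.3 in the vena cava, and at 15.3, 15.7, and 32.1 in the vena porta, without overlap. The inverse of R was 9.65 in CaPECs and 8.38 in VSMCs. This gene did not differ between CaPECs and VSMCs at the threshold, where the log2 difference was 0.58 (SE 0.53, edgeR adjusted p = 0.394).

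**Figure D3:**
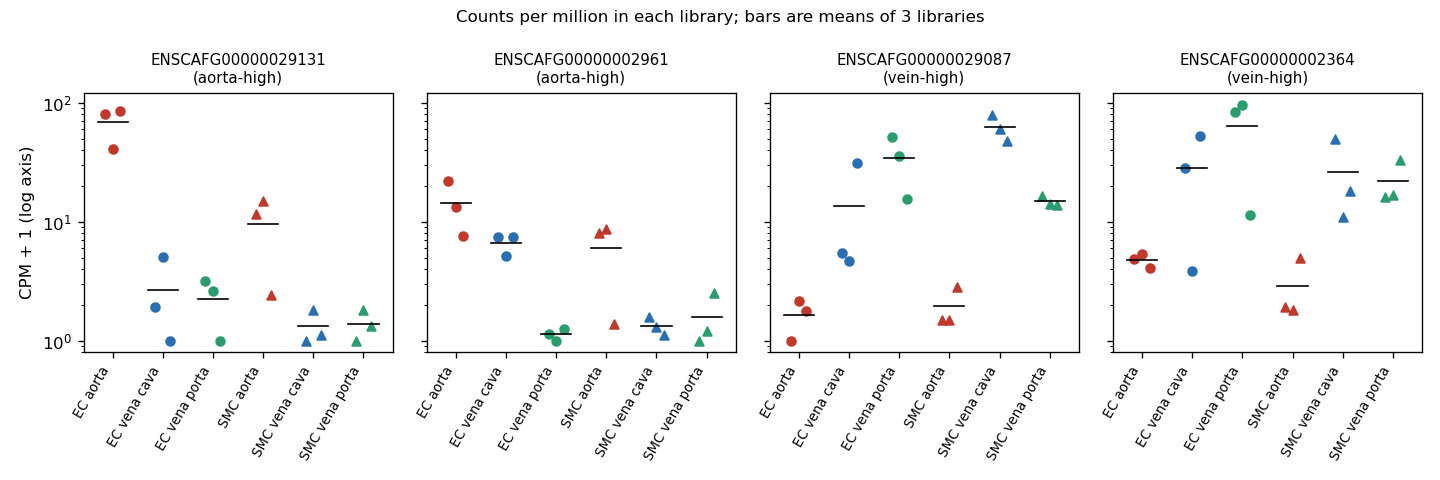
CPM plus 1 (log axis) of the 2 leading aorta-high and the 2 leading vein-high genes in each library of endothelial cells (EC, circles) and smooth muscle cells (SMC, triangles), by vessel, with bars at the means of 3 libraries. In aorta 3 of the smooth muscle cells, both aorta-high genes lie near the venous libraries, at 1.44 and 0.385 CPM.

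Across the members, the 3 aortic samples lay above all 6 venous samples for 18 of the 46 aorta-high genes in CaPECs, where 3.95% of the 8449 genes at this level did. In VSMCs, 14 of the 46 did (1.63% of the genes), and 6 did in both cell types (0.166%). Of the 153 vein-high genes, the aortic samples lay below all venous ones for 27 in CaPECs (5.43% of the 8879 genes), for 47 in VSMCs (6.58%), and for 7 in both (0.529%). The rule used this difference, so nothing is read from these counts beyond the reverse, that 20 aorta-high and 86 vein-high genes overlapped in both cell types.

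Within dogs, 39 of the 46 aorta-high genes were higher in the aorta than in the mean of the 2 veins for all 3 dogs in CaPECs (15.5% of the genes at this level), and 41 were in VSMCs (10.3%). Of the 153 vein-high genes, 121 were lower in the aorta of all 3 dogs in CaPECs (33.5%) and 145 in VSMCs (44.3%). The difference had the direction of the set in every dog of both cell types for 34 aorta-high genes (2.85%) and 114 vein-high genes (17.4%). The rule used the mean over these same dogs, so nothing is read from these counts.

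The number of members called between aorta and veins depended on the model. In edgeR's test of 3 aortic against 6 venous samples (adjusted p below 0.05 and absolute log2 fold change above 0.4), 3 of the 46 aorta-high genes were called in CaPECs, where 0.795% of the 11696 genes tested were called in this direction. Of the vein-high genes, 1 of 153 was called there (0.103%). In VSMCs, 2 aorta-high genes were called (0.0784% of 11484 genes) and 0 vein-high genes (0.0261%). Before adjustment, 28 aorta-high and 59 vein-high genes fell below 0.05 in CaPECs (13.5% of all genes), and 40 and 90 in VSMCs (12.5%). With the dog as a replicate block, the counts in VSMCs were 18 aorta-high and 12 vein-high genes (1.25% of all genes, both directions), and those in CaPECs 3 and 0 (0.402%). In that model, 44 and 117 genes fell below 0.05 before adjustment in VSMCs (17.3% of all genes), and 26 and 49 in CaPECs (12.2%). DESeq2 called 11 and 27 in CaPECs (4.39% of all genes) and 20 and 28 in VSMCs (2.7%). Between dogs, the median SD of log2 R was 0.57 for aorta-high and 0.92 for vein-high genes in CaPECs, beside a median log2 R of 1.09 and -1.10. The same SDs in VSMCs were 0.30 and 0.39, beside 0.81 and -0.87. Without any one dog, edgeR called 0 or 1 of the 199 genes in CaPECs and 0 in VSMCs. This test used the same difference as the rule, and nothing is read from its counts.

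In the libraries, the aorta-high genes were higher in each of the 6 aortic cultures than in any venous culture of that cell type by their median. The rule chose the genes by these same libraries, so nothing is read from this order. In CaPECs, their median log2 level relative to the mean of the cell type was 1.01, 0.80, and 0.94 in aorta 1 to 3. In vena cava 1 and 3 it was -0.01 and -0.08, nearer to the aorta than the -0.78 of vena cava 2 and the -0.82 to -0.44 of the vena porta. In VSMCs, the aortic cultures were at 0.81, 0.62, and 0.39, and aorta 3 was the lowest of these. The vein-high genes were at -1.33 in aortic CaPECs of dog 1 and at -0.47 and -0.38 in those of dogs 2 and 3. In VSMCs, the aortic cultures were closer together, at -0.68, -0.51, and -0.48, and the venous cultures lay between 0.10 and 0.54. The vein-high count was sensitive to 1 library: without aorta 2 of the VSMCs, it rose to 334 genes in place of 153. Of the 334, 138 were among the 153. These counts used column totals. The TMM factor of this library was 0.939, against 0.794 and 0.787 in aorta 1 and 3 of the VSMCs. With any other single library left out, the number was 128 to 198.

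**Figure D4:**
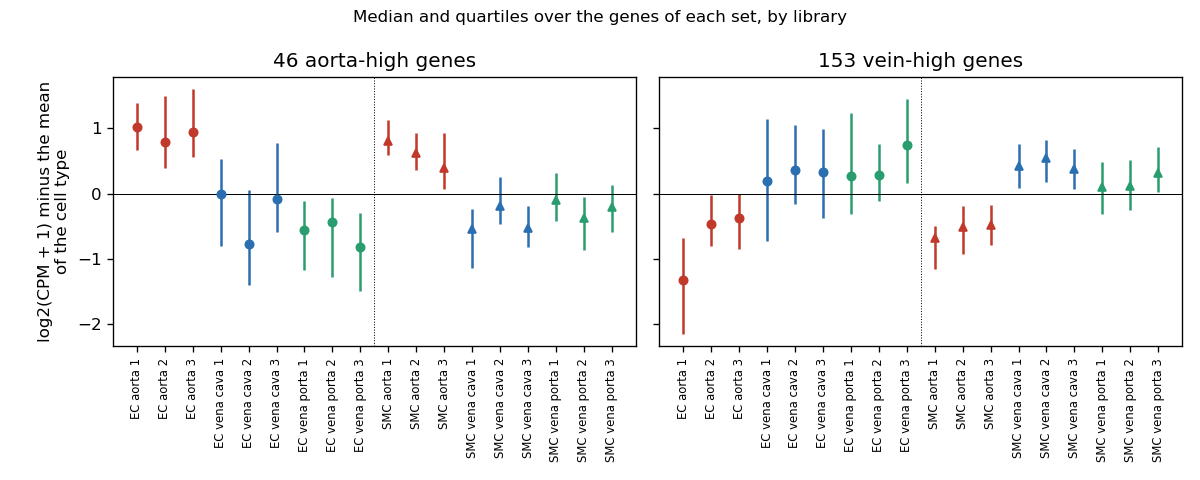
Median (points) and quartiles (bars) of log2(CPM + 1) minus the mean of the cell type over the 46 aorta-high genes (left) and the 153 vein-high genes (right), for each library of endothelial cells (EC, circles) and smooth muscle cells (SMC, triangles). The vein-high genes are lowest in the aortic endothelial culture of dog 1, at -1.33.

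The venous side of R pools the vena cava and the vena porta, and the members were therefore compared with each vein alone. Of the 46 aorta-high genes, 34 were past 1.5-fold against both veins in CaPECs and 29 in VSMCs, and 22 were past it in all 4 ratios. By group means, 0 of the 46 were below either vein in either cell type. Of the 153 vein-high genes, 8 were lower in the vena cava than in the aorta of CaPECs, and 11 were lower in the vena porta. In VSMCs, 1 and 2 were. Among the 153 vein-high genes, 91 were past 1.5-fold against both veins in CaPECs and 85 in VSMCs, and 51 in all 4 ratios. With the floor of 5 CPM set for each vein as well, 42 of them passed with column totals and 18 with both column totals and TMM, whereas 22 aorta-high genes passed either way. In CaPECs, 33 of the others passed against the vena cava only and 29 against the vena porta only. In VSMCs, these numbers were 51 and 17, where 65.4% of the 8982 genes at this level were higher in the vena cava than in the vena porta. With the aorta against the vena cava alone, the rule gave 61 aorta-high and 216 vein-high genes, and against the vena porta alone 63 and 113.

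The difference between the 2 veins was tested in all genes, with the vessels as 3 groups and the same thresholds. It is not itself part of R, but the venous levels behind it are. Genes that vary more are likelier to pass a ratio, and a gene can be vein-high through a single vein. This measure is thus not free of the choice, and nothing is read from the members' share of calls. In CaPECs, edgeR called 0 of the 46 aorta-high and 0 of the 153 vein-high genes, where 0.00855% of 11696 genes were called. Before adjustment, 10 and 29 of them fell below 0.05 (11.7% of all genes), and DESeq2 called 5 and 7 (2.97%). This depended on dog 2: without its cultures, 37 of the 199 genes were called, among 639 of all genes, and without dog 1 or dog 3 there were 0. The median squared difference of its vena cava culture from vena cava 1 and 3 was 25.4 and 24.8 times that of counting noise. Between vena cava 1 and 3 it was 11.4 times. The part of this culture in the calls was not tested. In VSMCs, edgeR called 0 aorta-high genes, and 1 vein-high gene, the one gene called among 11484 (0.00871%). Before adjustment, 6 aorta-high and 44 vein-high genes fell below 0.05 there (5.19% of all genes).

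That vein-high gene, the third by the smaller of its ratios, was a gene of the vena porta in VSMCs. It was at 98.9, 131.0, and 118.6 CPM in vena porta 1 to 3, at 9.53, 9.51, and 9.81 in the vena cava, and at 3.54, 7.48, and 10.96 in the aorta. The vena cava samples lay among the aortic ones. In VSMCs, log2 R was -0.35 against the vena cava alone and -3.81 against the vena porta alone. The gene thus met the rule in VSMCs through the vena porta, so its vein test is not independent of the choice. The log2 fold change of vena cava against vena porta came to -3.66 (SE 0.32, edgeR adjusted p = 0.0050). With the dog as a replicate block, the edgeR adjusted p was 0.000179. Without the block, the call was lost when dog 1 or dog 2 was left out, where 0 of all genes were called. In CaPECs, the vena porta samples were at 11.6, 11.8, and 73.8 CPM and those of the vena cava at 17.5, 9.96, and 1.01, and the log2 fold change of -1.85 (SE 1.20) was not past the threshold.

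With the dog as a replicate block, 12 members differed between the veins in VSMCs among 57 genes called (0.496% of all tested). They were 1 of the 46 aorta-high genes, higher in the vena porta, and 11 of the 153 vein-high genes, 7 toward the vena cava and 4 toward the vena porta. Vein-high genes that passed the rule through a single vein may be among them, so nothing is read from the members' share. DESeq2 without the block called 1 and 13 (0.592% of all genes). In CaPECs, the block left 0 of the 199 called and 0 of all genes, where 10 aorta-high and 36 vein-high genes fell below 0.05 before adjustment (10.3% of all genes).

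The sign of the difference between the veins was compared between the cell types. By group means, 34 of the 46 aorta-high genes were higher in the vena cava than in the vena porta in CaPECs (58.8% of the 8982 genes at this level), against 18 in VSMCs (65.4%). Of the 153 vein-high genes, 69 were higher in the vena cava in CaPECs and 107 in VSMCs. The sign agreed between the cell types for 20 of the 46 aorta-high genes and 81 of the 153 vein-high genes (52.9%), and for 49.2% of all genes at this level, so the members' shares lay near that of all genes. Where both cell types passed 1.5-fold between the veins, the sign was shared in 1 of 8 aorta-high genes and in 24 of 48 vein-high genes, 15 of them toward the vena cava and 9 toward the vena porta. Over all genes at this level, it was shared in 91 of 210, 53 toward the vena cava and 38 toward the vena porta. Across genes, the correlation of the log2 ratios between the cell types was -0.20 over the 46, 0.031 over the 153, and -0.11 over all genes at this level (Pearson's r, a description, since genes share libraries).

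**Figure D5:**
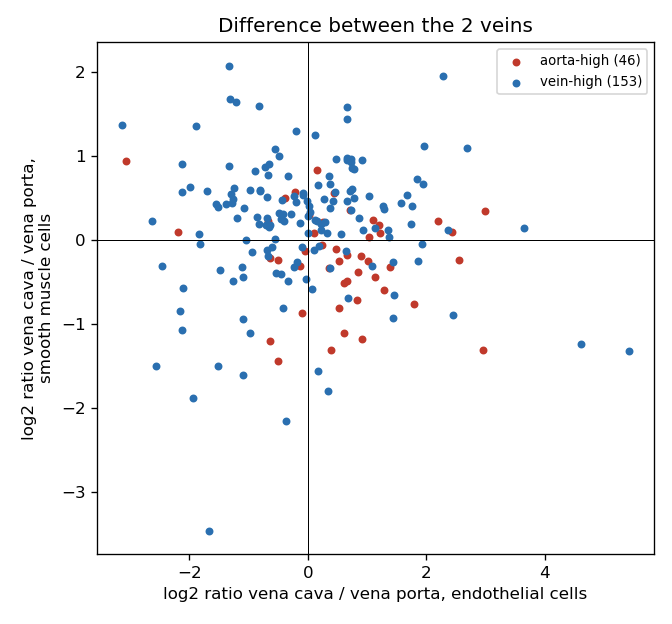
Log2 ratio of vena cava to vena porta (means of 3 libraries, CPM + 1) in endothelial cells (x axis) and smooth muscle cells (y axis) for the 46 aorta-high and the 153 vein-high genes, each point a gene. Points lie on both sides of both zero lines, and the sign is shared by 20 of the 46 and 81 of the 153.

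Members were also compared between the cell types, averaged over the 3 vessels. The floor of 5 CPM removes genes under that level in the aorta (aorta-high) or the veins (vein-high) of either cell type. Genes with a far higher level in the other cell type can still pass it. With edgeR's adjusted p below 0.1, 33 of the 46 aorta-high genes differed between CaPECs and VSMCs, where 51.6% of 12288 genes tested (51% with the replicate block, which called 33 and 86 members) and 53.8% of those at the floor did. Of these, 12 were higher in CaPECs and 21 in VSMCs, where 26.8% and 27% of the genes at the floor, and 27% and 24.6% of all tested, were called in the same directions. The median absolute log2 fold change was 0.98 in the 12 genes and 1.96 in the 21 genes, and the largest was 8.75 toward VSMCs. Of the 153 vein-high genes, 89 differed, 46 higher in CaPECs and 43 in VSMCs, with a largest log2 fold change of 6.04 and 6.86 in these directions. Without any one dog number, 97 to 111 of the 199 genes were called, in place of 122. Over all genes, 4816 to 5291 were called, in place of 6342. The block joins CaPEC and VSMC cultures by number, which may not be the same dog. Without the block, the vessels of a dog count as separate samples, so the p-values may be too small.

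The effect of the dog was tested in CaPECs and VSMCs apart, with the vessel in the model and at an adjusted p-value below 0.05. In VSMCs, 13 of the 46 aorta-high genes (28.3%) and 21 of the 153 vein-high genes (13.7%) differed between dogs, where 6.44% of 11484 genes did. Without the aortic cultures, 4 of the 199 genes were called in place of 34, and calls over all genes went from 740 to 14. Without the vena cava cultures 39 were called (582 of all genes), and without the vena porta cultures 41 (598). A single aortic culture that stands apart can move both R and this test, so nothing is read from the members' larger share. In CaPECs, edgeR called 0 of the 199 and 0 of 11696 genes between dogs (0%). Before adjustment, 3 aorta-high and 10 vein-high genes fell below 0.05 (3.19% of all genes), and DESeq2 called 3 of the 199 (0.282%). The difference between the cell types in these counts was not tested.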

How the data were processed

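Polyadenylated RNA of 18 cultures was sequenced by the authors as single-end reads, aligned to CanFam3.1 with STAR 2.4.2a and counted per gene with HTSeq-count 0.6.1p1 in union mode (tools per the labels and the paper's methods). They deposited raw read counts without normalization. The annotation release and strand setting of the counting are not given in the sources used here, so overlapping and near-identical genes are uncertain.

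From these counts, CPM and R were computed with column totals. Tests used edgeR's quasi-likelihood functions (version 4.0.16 under R 4.3.3, TMM factors, filterByExpr at a minimum count of 10), with Benjamini-Hochberg adjustment over all genes tested, and DESeq2 1.42.0 as an alternative. All 199 members passed the filter. Standard errors were derived from the F statistic. The scripts were checked on simulated counts. Members, lists, and tests were chosen with earlier results of these data known. The product of shares is arithmetic, without a test. In each direction, the 2 genes with the largest smaller-of-2 absolute log2 R are named by identifier; the gene that alone differed between veins in VSMCs was described after its values were seen. Gene lists fixed by symbol could not be used. The median squared difference between replicates was 6.84 to 25.4 times that of counting noise alone. Same-numbered cultures of a cell type were taken as one dog from the shared column tag. Their deviations correlated at 0.40 on average in VSMCs (0.037 to 0.61) and at -0.018 in CaPECs (-0.39 to 0.26). P-values measure the spread between these cultures, and tests without the replicate block take the vessels of a dog as separate samples.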

Additional observations from a re-analysis of the deposited data

Results flagged for a closer look

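In 10 groups of samples (the 4 named genes in the 6 venous libraries of each cell type, and the total count in the 9 libraries of each cell type), Dixon's gap test was applied to both extremes. A single sample stood apart in 1 group, where 0.5 are expected by chance. ENSCAFG00000002961 was at 1.53 CPM in VSMCs of vena porta 3, from 19 counts, against 0.572 in the next highest venous VSMC sample.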

How the results depend on the processing

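The number of aorta-high genes was 12 at a 2-fold ratio, 72 with medians of samples, 89 with TMM, and 93 with DESeq2 size factors, in place of 46, and 40 to 61 when a dog or a library was left out. The number of vein-high genes was 43 at a 2-fold ratio, 265 at a floor of 1 CPM, 91 with TMM and with DESeq2 size factors, in place of 153, and 128 to 334 when a dog or a library was left out, a choice made for single libraries after the data were seen. The highest number came without aorta 2 of the VSMCs. At a floor of 10 CPM, 37 and 104 genes were found, and with a pseudocount of 0.1 CPM 52 and 191. The log2 ratios of the 4 named genes were recomputed 144 times and reversed in 0; 9 moved by more than the spread between dogs.

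Calls over all genes tested are given in brackets. Of the 199 genes, the number called between the veins in CaPECs was 0 (1), with DESeq2 12 (347), and without a filter 1 (3). Without one dog it was 0 to 37 (0 to 639), where 37 came without dog 2. In VSMCs it was 1 (1), with DESeq2 14 (68), without a filter 3 (5), with the replicate block 12 (57), and 0 to 1 (0 to 1) without one dog. The number between dogs in CaPECs was 0 (0) and with DESeq2 3 (33). In VSMCs it was 34 (740), with DESeq2 54 (1162), without a filter 62 (1197), and 4 to 41 (14 to 598) without one vessel. Between aorta and veins, 4 (105) were called in CaPECs, with DESeq2 38 (514) and 0 to 1 (2 to 7) without one dog. In VSMCs 2 (12) were called, with DESeq2 48 (310), without a filter 7 (24), with the replicate block 30 (144), and 0 (0) without one dog. The block moved no other count by over 1.5 times, and between CaPECs and VSMCs the alternatives gave 97 to 122 (4816 to 6394). Where a count moved, the cause was not tested. At the smallest depth of 6020932 counts, genes near 1 CPM rest on few reads.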
